A study of Oryzias latipes with 48 samples.

Results

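The glutathione and thioredoxin antioxidant genes are 62 of the 26167 genes measured in the brain of medaka (Oryzias latipes), a small seasonal fish. They were chosen by product name (glutathione, thioredoxin, peroxiredoxin, superoxide dismutase or catalase) and by a mean of at least 1 FPKM over all libraries, where FPKM is a fragment count corrected for gene length and library size. Of 76 genes matched by name, 14 fell below that level. Just inside it lay a glutathione hydrolase-like gene, LOC101171819, with a mean of 1.03 FPKM, and just outside it lay tmx2 with 0.958 FPKM. The rule also named glutamate--cysteine ligase, which matched no gene because the files write that name with a single hyphen. The tissue was a block of ventral telencephalon, hypothalamus and pituitary, and fish lived outdoors under natural conditions at Okazaki, Japan. The seasons were represented by their turning points, namely the equinoxes of spring and autumn and the solstices of summer and winter, with 6 clock hours (2, 6, 10, 14, 18 and 22) and 2 libraries at each, so 12 per season and 48 in all. No strain, sex, age or number of fish per library is given in the sources used here, and separate fish are not stated, so each p-value reflects only the spread among libraries, which may be technical.

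Cells remove superoxide with superoxide dismutases, which make hydrogen peroxide, and they remove hydrogen peroxide with catalase, glutathione peroxidases and peroxiredoxins. Most glutathione peroxidases take their electrons from the tripeptide glutathione, which glutathione reductase restores. Most peroxiredoxins take theirs from thioredoxin, which thioredoxin reductase restores with NADPH. Glutathione S-transferases join glutathione to reactive compounds and hormones so that they can be exported. In brain these systems are known for guarding neurons and glia, whose membranes are rich in oxidizable lipids. Matching by product name also brought in 13 proteins grouped here by their thioredoxin fold. Some of them, such as the splicing factor txnl4a, are not known as antioxidant enzymes.

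Season was the main axis along which these libraries differed. The 2 libraries of a group correlated at 0.977 to 0.988 across genes, and FPKM sums lay between 314605 and 359311, while the read depth is unknown. On a second component (9.78% of the variance) 3 spring libraries had the highest values. They were hour 2 library 1 (21.07), hour 18 library 1 (29.63) and hour 22 library 2 (24.26). The second summer library of hour 10 (19.64) and the first of hour 22 (19.08) lay close below. A library component holding 42.7% of the variance separated summer and autumn from spring and winter. Summed markers of several cell types, though not all, were higher in summer and autumn. The gene counts below compare summer with autumn against spring with winter, by the test described in the next paragraph. In that contrast 47.2% of all tested genes were higher and 32.2% lower. The 8 neuronal genes (snap25 and others) had median sums of 1468, 1815, 1824 and 1484 FPKM in spring, summer, autumn and winter, and 7 of them were higher in summer and autumn than in spring and winter. The 5 radial glia and astrocyte genes had medians of 1256, 2024, 1755 and 1219 FPKM (libraries 1083 to 2380), with 5 higher. The 14 myelin genes had medians of 1341, 1666, 2139 and 1191 FPKM (1005 to 2823), with 9 higher and 1 lower. The 7 hemoglobin and band 3 genes had medians of 379.9, 1538, 1182 and 664.7 FPKM (215.5 to 2402), with 5 higher and 2 lower, and 4 further hemoglobin genes outside the sum had season medians of 0. The 8 pituitary hormone genes had medians of 2658, 3525, 3206 and 1750 FPKM (1181 to 4438), with 5 higher and 2 lower. The 8 hypothalamic genes had medians of 159.9, 240.4, 196.6 and 188.3 FPKM, with 7 higher and 1 lower. The 5 endothelial genes (35.53, 33.01, 33.91 and 33.94 FPKM, with 2 higher and 2 lower) and the 2 microglial genes (14.54, 12.6, 14.23 and 11.78 FPKM, with 1 higher) did not follow that order. The part of these cell types in the results that follow was not tested, and in a tissue block fewer cells of a type and less RNA per cell cannot be told apart. The collection year of each season is not given here, and season and collection cannot be told apart.

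Nearly all of the antioxidant genes differed between seasons, about as often as other genes. A gene is called here when its adjusted p is below 0.05 in limma on log2(FPKM + 1), with Benjamini-Hochberg adjustment over 16622 genes. In that test 57 of the 62 genes (91.9%) differed between seasons, against 90.9% of all genes. Season held a median of 52.0% of a member's variance, against 49.5% over all genes. The median size of the log2 difference between summer and winter was 0.27 for members and 0.27 for all genes. The genes that did not pass were gss, txnl4b, txndc16, mgst1 and LOC101166157 (peroxiredoxin-4).

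The direction was split. Summer with autumn, against spring with winter, had 34 members higher and 20 lower, where 47.2% of all genes were called higher and 32.2% lower. That grouping of seasons was taken from earlier results of these data, so it describes an axis already known. By median level, 32 members had autumn and summer as their highest seasons and 19 had spring and winter. That order was not counted over all genes, so it cannot be read as particular to the members. Summer against winter had 26 higher and 18 lower (42% and 32.9% of all genes). Autumn against winter had 29 higher and 17 lower (42.4% and 29.3% of all genes). Spring against autumn had 15 higher and 35 lower (27.3% and 45.1% of all genes), and spring against summer had 20 higher and 33 lower (29.9% and 43.9% of all genes). The neighbouring seasons with similar levels gave fewer calls: 8 higher and 15 lower in summer against autumn (19.4% and 24.2% of all genes), and 23 higher and 5 lower in winter against spring (28.1% and 21.3% of all genes). Most of these shares lay near those of all genes. The largest gaps were the lower calls in winter against spring and in spring against autumn. The first had 5 of 62 members (8.1%, against 21.3% of all genes) and the second 35 of 62 (56.45%, against 45.1%). No test of these gaps was made. Of the called members 82.1% were higher in winter than in spring in the FPKM values themselves. That share was 74.1% when libraries were scaled by median ratios and 70.4% when they were quantile normalized. Over all called genes the same 3 shares were 56.9%, 51.7% and 49.3%. For summer with autumn against spring with winter they were 63%, 59.3% and 60.4% of called members. Over all called genes they were 59.5%, 50% and 51.6%, so the lean of all genes towards summer and autumn depended on the scaling. After median-ratio scaling autumn against winter had 22 members higher and 19 lower, and spring against autumn 19 and 29. The higher share among called members was then 53.7% in the first, against 50.3% among all called genes. In the second it was 39.6%, against 48.8%. The shares of all genes given beside counts are those of the FPKM values as deposited. These comparisons share seasons, so they are not independent of each other.

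**Figure D1:**
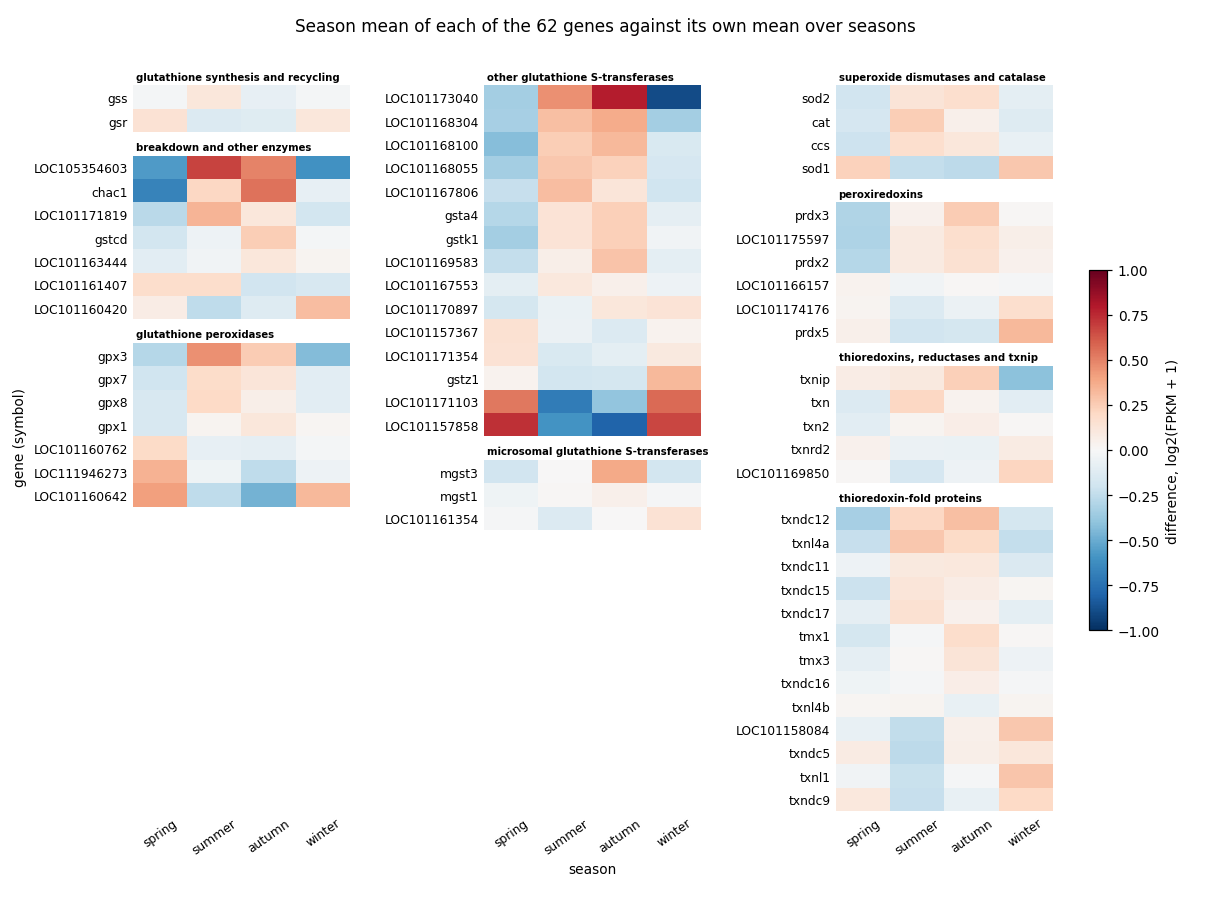
Season mean of each of the 62 genes as a difference from its own mean over the 4 seasons, on the log2(FPKM + 1) scale, grouped by role and ordered within a role by summer with autumn against spring with winter (red higher, blue lower). LOC101173040 and LOC105354603 were high in summer and autumn, LOC101157858 and LOC101171103 were high in spring and winter, and prdx1 (LOC101175597), prdx2 and prdx3 were low in spring.

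Of the 2 members that make or recycle glutathione, gss did not differ over seasons past the threshold and gsr was lower in summer and autumn. Glutathione synthetase (gss), which adds the last amino acid, averaged 10.9 ± 1.8, 12.04 ± 1.7, 10.4 ± 1.7 and 10.8 ± 1.1 FPKM in spring, summer, autumn and winter (SD, n = 12 each) and did not pass the test over seasons (adjusted p = 0.128). Its summer minus autumn difference of 0.20 (log2, SE 0.081, adjusted p = 0.049) lost its call under most alternatives and lay at adjusted p = 0.079 with a replicate block. Glutathione reductase (gsr), which restores oxidized glutathione, had 5.87, 7.77 and 10.6 FPKM (lowest, median, highest) in summer against 8.16, 9.45 and 10.4 FPKM in winter. The libraries of both seasons overlapped, and the difference was -0.25 (SE 0.078, adjusted p = 0.0047). It was lower in autumn than in winter as well, at -0.23. The 2 subunits of glutamate-cysteine ligase, the rate-limiting step, lie outside the rule and were looked up after values were seen. The catalytic subunit gclc averaged 8.64, 10.6, 11.9 and 9.64 FPKM over the seasons, and the modifier subunit gclm averaged 6.24, 8.60, 9.38 and 7.45 FPKM. In gclm all spring libraries (5 to 7.67 FPKM) lay below all autumn libraries (8.56 to 10.4 FPKM), and the spring minus autumn difference was -0.53 (SE 0.041, adjusted p = 3.4e-12). Both subunits were higher in summer with autumn than in spring with winter, by 0.27 for gclc and 0.36 for gclm, opposite in direction to gsr.

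Among the genes that break down or use glutathione in other ways, a hydrolase and a cyclotransferase moved most. LOC105354603, a hydroxyacylglutathione hydrolase-like gene whose relatives release glutathione in methylglyoxal detoxification, had the largest season F of all members (208). Its levels (lowest, median, highest) were 2.11, 2.59 and 4.81 FPKM in spring, 6.67, 7.67 and 10.6 FPKM in summer, 4.39, 6.89 and 9.28 FPKM in autumn, and 2.18, 2.78 and 3.31 FPKM in winter. Every summer library lay above every spring and winter library. The summer minus winter difference was 1.28 (SE 0.067, adjusted p = 4.2e-16), and its mean FPKM was 2.98-fold higher in summer. Its next neighbour in the medaka reference assembly, LOC101161407, encodes the mitochondrial hydroxyacylglutathione hydrolase and behaved differently. LOC101161407 averaged 23.2, 23.3, 17.8 and 18.2 FPKM in spring, summer, autumn and winter, so it was high in spring and summer. The correlation of both neighbours over 48 libraries was 0.12. The genes whose pattern over 48 libraries was most like that of LOC105354603 were aifm1 (r = 0.96), LOC101158306 (0.96), LOC100820721 (0.95), LOC101175365 (0.95) and szrd1 (0.95).

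The gene chac1 encodes an enzyme that degrades glutathione and is known from stressed cells. It had 11.8, 36.1 and 58.0 FPKM in spring, 36.5, 62.6 and 109 FPKM in summer, 61.3, 82.4 and 99.3 FPKM in autumn, and 30.7, 54.1 and 65.2 FPKM in winter (lowest, median, highest). All spring libraries lay below all autumn libraries, and the spring minus autumn difference was -1.21 (SE 0.16, adjusted p = 1.1e-07). Libraries of the same hour could differ widely, as at hour 10 in summer (85.9 and 36.5 FPKM). Summer and winter did not differ past the threshold (0.29, adjusted p = 0.10). Winter was higher than spring by 0.58 (adjusted p = 0.0035), and by 0.33 (adjusted p = 0.067) without the 3 spring libraries highest on the second component.

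A pair of thiosulfate:glutathione sulfurtransferase genes, enzymes of sulfide oxidation, went separate ways. LOC101160420 averaged 5.28 ± 0.77 FPKM in summer and 8.33 ± 1.43 FPKM in winter (SD, n = 12 each), a difference of -0.57 (SE 0.077, adjusted p = 1.6e-07). LOC101163444 averaged 10.2 ± 1.6 FPKM in summer and 10.7 ± 1.4 FPKM in winter, with a difference of -0.06 (adjusted p = 0.36). The low LOC101171819 was higher in summer (1.53 FPKM) than in winter (0.753 FPKM), by 0.53 on a scale that understates genes near 1 FPKM. Only its summer and autumn (1.17 FPKM) means exceeded 1 FPKM, with spring at 0.656 FPKM. It thus became a member through the seasons where it was high, and its call carries no weight of its own. The gene gstcd, with a glutathione S-transferase C-terminal domain, averaged 0.878 FPKM in spring, against 1.53 FPKM in autumn, its highest season (spring minus autumn -0.43, adjusted p = 9.4e-08).

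Of the 7 glutathione peroxidases, 4 were higher in summer with autumn than in spring with winter and 3 lower (47.2% and 32.2% of all genes). In that contrast the split followed the subfamily. The secreted enzyme gpx3 had 22.2, 32.4 and 40.1 FPKM in spring, 45.4, 53.3 and 57.3 FPKM in summer, 40.0, 46.6 and 49.5 FPKM in autumn, and 23.3, 28.1 and 34.4 FPKM in winter. No summer library overlapped with a spring or winter library. The summer minus winter difference of gpx3 was 0.89 (SE 0.068, adjusted p = 1.6e-12), and its mean FPKM was 1.87-fold higher in summer. The genes gpx7 and gpx8, enzymes of the endoplasmic reticulum, were higher in summer than in winter by 0.29 and 0.30, at means of 2.199 and 2.79 FPKM in summer. The general cytosolic enzyme gpx1 was lower in spring than in autumn by 0.27 (log2 -0.27, adjusted p = 0.0024), while its summer and winter levels differed by 0.00. The higher call of gpx1 in summer with autumn was lost after both other scalings (adjusted p = 0.22 and 0.076).

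The 3 phospholipid hydroperoxide glutathione peroxidases, which repair oxidized membrane lipids, were the lower ones in summer with autumn against spring with winter. Of them only LOC101160642 was also called lower in summer than in winter and in autumn than in winter. LOC101160762 averaged 73.5, 73.0 and 76.9 FPKM in summer, autumn and winter, and LOC111946273 averaged 2.38, 1.98 and 2.345 FPKM. LOC101160642 had 24.7, 27.8 and 37.5 FPKM in summer, against 35.8, 43.5 and 50.0 FPKM in winter (lowest, median, highest). In spring it reached 38.5 to 53.8 FPKM, and in autumn 19.4 to 29.1 FPKM, with no overlap. Its spring minus autumn difference was 0.88 (SE 0.060, adjusted p = 1.7e-13), and its summer minus winter difference was -0.58 (adjusted p = 1.0e-09). The more abundant LOC101160762 averaged 89.4 ± 12.1 FPKM in spring, against 73.0 ± 6.6 FPKM in autumn (SD, n = 12 each), a difference of 0.28 (SE 0.067, adjusted p = 4.5e-04). Its neighbour LOC111946273, at only 3.44 FPKM in spring and 1.98 FPKM in autumn, differed by 0.60 in the same contrast. Both of these were lower in winter than in spring, by -0.21 and -0.39, whereas LOC101160642 was not (-0.08, adjusted p = 0.25). The call of LOC101160762 in that contrast was lost without clock hour 2 (-0.16, adjusted p = 0.086).

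**Figure D2:**
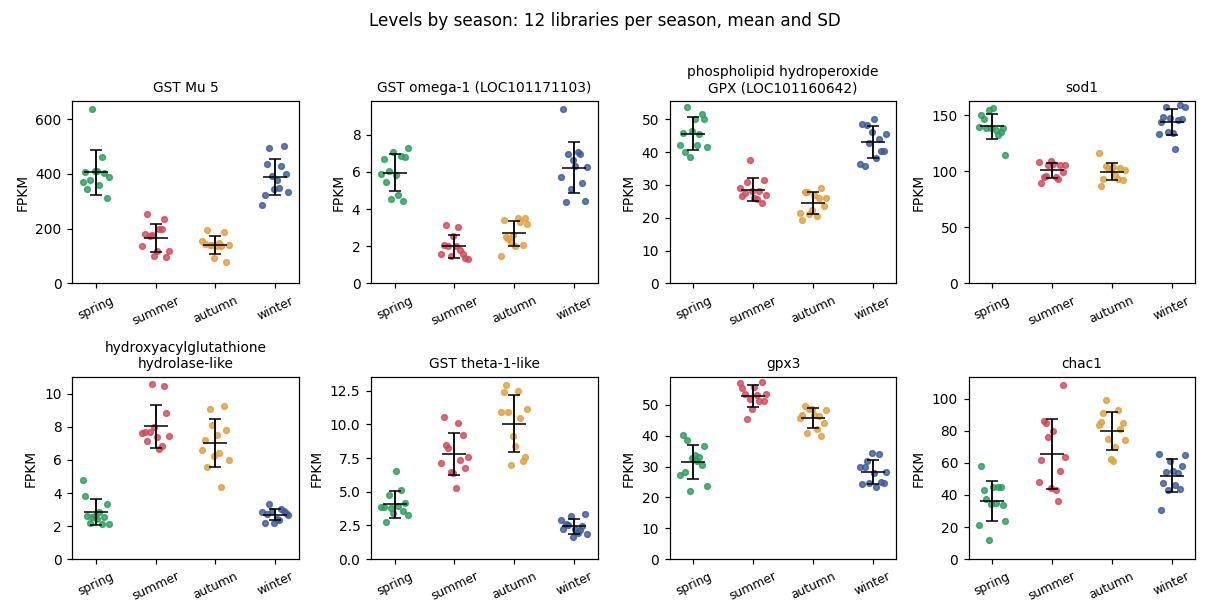
FPKM of 8 genes in each season, with a point per library (12 per season), the mean as a bar and the SD as whiskers. The upper row (GST Mu 5, a GST omega-1, a phospholipid hydroperoxide peroxidase and sod1) was high in spring and winter, and the lower row was high in summer, autumn or both.

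The glutathione S-transferases (GST) that are not microsomal held the widest season differences. In summer with autumn against spring with winter, 9 of 15 were higher and 5 lower (47.2% and 32.2% of all genes). The theta-1 gene LOC101170897 was not called in that contrast. GST Mu 5 (LOC101157858) was the most abundant of the 15. Its levels were 311, 395 and 637 FPKM in spring, 98.5, 176 and 253 FPKM in summer, 78.9, 141 and 197 FPKM in autumn, and 285, 385 and 500 FPKM in winter (lowest, median, highest). No library of summer or autumn reached any library of spring or winter. The summer minus winter difference was -1.27 (SE 0.11, adjusted p = 4.0e-11), with a mean FPKM 2.35-fold higher in winter than in summer, and 2.88-fold higher in spring than in autumn. The summed level of the 15 transferases, of which this gene is the most abundant, had medians of 641.9, 475.6, 454.0 and 651.3 FPKM in spring, summer, autumn and winter, although more of the genes rose in summer with autumn. GST Mu 3 (LOC101157367) is its next neighbour in the reference assembly and could share reads with it. It averaged 61.6, 53.1, 50.1 and 56.9 FPKM over the seasons, and summer and winter differed by -0.09 (adjusted p = 0.14).

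The omega and theta classes each held a gene that moved strongly beside one that moved less. GST omega-1 LOC101171103 had 1.29, 1.91 and 3.15 FPKM in summer, against 4.40, 6.28 and 9.38 FPKM in winter, without overlap. Its summer minus winter difference was -1.27 (SE 0.092, adjusted p = 6.7e-13). Its neighbour LOC101171354, also named GST omega-1 and thus open to shared reads, averaged 14.4 ± 3.6 FPKM in summer and 16.9 ± 1.6 FPKM in winter, a difference of -0.25 (SE 0.072, adjusted p = 0.0027). The theta-1-like gene LOC101173040 was the opposite of LOC101171103. It had 2.72, 3.87 and 6.50 FPKM in spring, 5.25, 7.48 and 10.5 FPKM in summer, 7.01, 10.7 and 12.9 FPKM in autumn, and 1.64, 2.37 and 3.36 FPKM in winter. Its autumn libraries lay above all spring and winter libraries. The summer minus winter difference was 1.35 (SE 0.080, adjusted p = 6.5e-15), and the mean FPKM in autumn was 4.13 times that in winter. The theta-1 gene LOC101170897, at 3.53 to 4.64 FPKM in season means, was lower in summer than in winter by -0.20 (adjusted p = 0.027). The correlation over 48 libraries between LOC101171103 and the hydrolase LOC105354603 was -0.90, the most negative among all pairs of members. Season means were not removed, so that value includes the season differences of both genes.

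A run of 6 GST A genes with no other gene between them in the reference assembly moved in the same direction. As deposited, all 6 (LOC101167553, LOC101167806, LOC101168100, LOC101169583, LOC101168055 and LOC101168304) were higher in summer than in winter and lower in spring than in autumn. Of all genes, 42% were higher in summer than in winter and 45.1% lower in spring than in autumn. LOC101168304 changed most, with 14.4, 19.7 and 25.98 FPKM in summer against 9.55, 12.7 and 14.7 FPKM in winter, a difference of 0.64 (SE 0.064, adjusted p = 5.2e-10). Its highest winter library only just exceeded its lowest summer library. The smallest changes were those of LOC101167553 (38.0 FPKM in summer and 33.9 FPKM in winter) and LOC101169583 (32.7 and 29.2 FPKM in the same order), with differences of 0.16 and 0.15 that were lost after median-ratio scaling (adjusted p = 0.068 and 0.15). The lower call of LOC101167553 in spring against autumn (-0.14) was lost under both scalings (adjusted p = 0.26 each), and that of LOC101167806 (-0.36) after median-ratio scaling (adjusted p = 0.056). Correlations between adjacent genes of the run over 48 libraries were 0.23 to 0.67. A seventh copy at its end, LOC101168556, had a mean of only 0.0012 FPKM. Reads may be split among these copies, and the value of a single copy is less certain for that reason.

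Other classes also differed in direction. The alpha 4 gene gsta4 averaged 50.3 ± 7.2 FPKM in summer and 43.4 ± 9.0 FPKM in winter (difference 0.22, SE 0.071, adjusted p = 0.0063). The kappa gene gstk1, known in mammals from mitochondria and peroxisomes, had a narrow spread within seasons and was lowest in spring. It had 9.85, 11.5 and 13.7 FPKM in spring, against 15.9, 17.9 and 19.9 FPKM in autumn, a difference of -0.57 (SE 0.035, adjusted p = 1.9e-14). The zeta gene gstz1, an enzyme of tyrosine breakdown, was highest in winter. It averaged 17.1 ± 3.1 FPKM in summer and 24.6 ± 2.8 FPKM in winter, a difference of -0.51 (SE 0.056, adjusted p = 2.5e-09). Among the 3 membrane-bound microsomal transferases, mgst3 peaked in autumn at 48.4 ± 4.6 FPKM, against 32.5 ± 3.4 FPKM in winter (0.56, SE 0.052, adjusted p = 1.1e-10). The other gene named microsomal GST 3, LOC101161354, was lower in summer (38.7 FPKM) than in winter (47.2 FPKM) by -0.28, and mgst1 stayed between 22.1 and 23.6 FPKM in season means with no call.

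Superoxide dismutase 1 went against its partners. The abundant cytosolic enzyme sod1 had 114, 139 and 156 FPKM in spring, 89.9, 103 and 110 FPKM in summer, 87.4, 102 and 117 FPKM in autumn, and 120, 147 and 159 FPKM in winter. Summer and winter did not overlap. The summer minus winter difference of sod1 was -0.51 (SE 0.036, adjusted p = 3.8e-13). The copper chaperone ccs, which loads copper into this enzyme, was higher in summer (4.52 ± 0.55 FPKM) than in winter (3.66 ± 0.31 FPKM), by 0.24 (adjusted p = 2.0e-06). The mitochondrial sod2 averaged 31.3 ± 3.7 FPKM in summer and 26.6 ± 2.4 FPKM in winter, a difference of 0.23 (SE 0.054, adjusted p = 4.8e-04). Catalase (cat), which splits hydrogen peroxide in peroxisomes, averaged 32.8 ± 10.0 FPKM in summer and 24.1 ± 1.6 FPKM in winter (0.37, SE 0.056, adjusted p = 8.6e-07). The wide summer SD of cat came with a daily rhythm, given further on.

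Peroxiredoxins fell into 3 patterns. The cytosolic peroxiredoxin-1 (LOC101175597) and prdx2 and the mitochondrial prdx3 were lowest in spring. In the other seasons peroxiredoxin-1 and prdx2 differed by at most 0.11 (log2) between seasons, while prdx3 was also higher in autumn (34.9 FPKM) than in summer (30.2 FPKM) and winter (29.25 FPKM). Peroxiredoxin-1 had 62.6, 70.4 and 77.5 FPKM in spring, against 83.3, 89.7 and 104 FPKM in summer and 81.8, 95.1 and 121 FPKM in autumn (lowest, median, highest). Spring overlapped with neither summer nor autumn. Its spring minus autumn difference was -0.47 (SE 0.047, adjusted p = 5.6e-10), and prdx2 (-0.44) and prdx3 (-0.55) fell alike. In winter against spring the differences were 0.37 for peroxiredoxin-1, 0.33 for prdx2 and 0.31 for prdx3. The autumn against winter calls of peroxiredoxin-1 and prdx2 (0.11 each) were lost under both other scalings. The second pattern was that of prdx5, found in mitochondria and peroxisomes, and peroxiredoxin-6 (LOC101174176), which were highest in winter. The levels of prdx5 were 28.6, 35.9 and 40.3 FPKM in summer, against 43.7, 51.0 and 63.2 FPKM in winter, without overlap and with a difference of -0.51 (SE 0.052, adjusted p = 5.9e-10). Peroxiredoxin-6 averaged 38.1 ± 6.0 FPKM in summer and 47.1 ± 4.0 FPKM in winter (-0.31, SE 0.058, adjusted p = 2.8e-05). The third was peroxiredoxin-4 (LOC101166157), the form of the endoplasmic reticulum, which stayed at 31.6 to 33.3 FPKM in season means and was called in no contrast. Winter against spring therefore had 5 of 6 peroxiredoxins higher (28.1% of all genes). The count was 4 of 6 after either scaling, with a replicate block or without the 3 spring libraries. Peroxiredoxin-6 (0.14) was the call lost under both scalings.

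**Figure D3:**
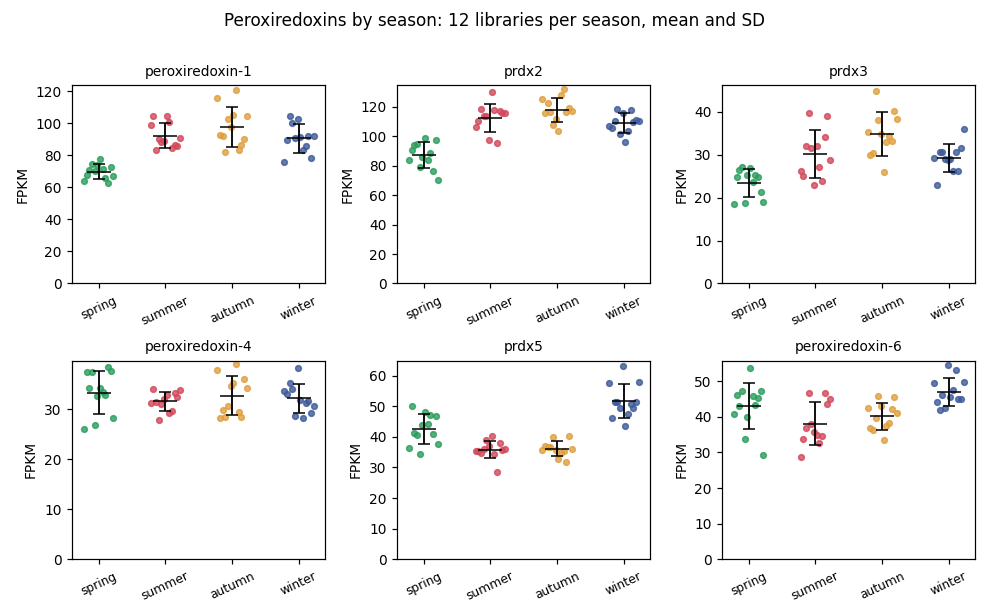
FPKM of the 6 peroxiredoxins in each season, with a point per library (12 per season), the mean as a bar and the SD as whiskers. Peroxiredoxin-1, prdx2 and prdx3 had their lowest means in spring, prdx5 and peroxiredoxin-6 their highest in winter, and peroxiredoxin-4 stayed near the same level.

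Thioredoxin rose in summer while its cytosolic reductase fell. Thioredoxin (txn) had 88.3, 104 and 117 FPKM in summer, against 72.9, 80.1 and 105 FPKM in winter. Most summer libraries lay above most winter libraries, and the difference was 0.31 (SE 0.047, adjusted p = 7.3e-07). Thioredoxin reductase 1 (LOC101169850) averaged 17.0 ± 3.4 FPKM in summer and 22.1 ± 2.1 FPKM in winter, a difference of -0.38 (SE 0.053, adjusted p = 2.6e-07). The mitochondrial pair changed less: txn2 averaged 18.5 FPKM in summer and 18.2 FPKM in winter (0.02, adjusted p = 0.74), and txnrd2 averaged 5.21 FPKM in summer and 5.84 FPKM in winter (-0.14, adjusted p = 0.0026). The thioredoxin inhibitor txnip, a gene known for its response to glucose, was low in winter alone among the seasons. It had 12.8, 26.2 and 32.1 FPKM in spring, 19.3, 24.2 and 32.6 FPKM in summer, 19.2, 26.1 and 33.1 FPKM in autumn, and 13.1, 16.5 and 21.6 FPKM in winter. The autumn minus winter difference of txnip was 0.65 (SE 0.059, adjusted p = 1.1e-10), and winter minus spring was -0.48 (adjusted p = 2.4e-07). The spring against autumn calls of txn, txn2 and txnip, all under 0.18 in size, were lost after median-ratio scaling.

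The 13 thioredoxin-fold proteins mixed both directions. In summer with autumn against spring with winter 7 were higher and 4 lower (47.2% and 32.2% of all genes). Among them txndc12, a small thiol enzyme of the endoplasmic reticulum, had 10.9, 12.5 and 14.2 FPKM in summer, against 7.84, 9.32 and 10.8 FPKM in winter. Its libraries of summer and autumn (10.9 to 16.4 FPKM) all lay above those of spring and winter (6.32 to 10.8 FPKM), and the difference between these pairs of seasons was 0.50 (SE 0.032, adjusted p = 1.3e-14). The splicing factor txnl4a was higher in summer (23.8 FPKM) than in winter (16.5 FPKM) by 0.51, while its relative txnl4b was not called. The genes txndc11, txndc15 and txndc17 were higher in summer than in winter, by 0.24, 0.10 and 0.25, and the call of txndc15 was lost after median-ratio scaling. The membrane proteins tmx1 and tmx3 were highest in autumn (19.2 and 21.9 FPKM), and txndc16 was not called. The lower genes in summer against winter were LOC101158084 (tmx2-B, 44.1 and 63.2 FPKM, -0.52), txnl1 (20.8 and 30.0 FPKM, -0.50), txndc9 (42.1 and 56.9 FPKM, -0.43) and txndc5 (9.19 and 12.3 FPKM, -0.38). All adjusted p of these 4 were at most 1.4e-08.

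The daily rhythm was a matter of a few genes and mostly of summer and autumn. A 24 h cosine curve was fitted in each season, and its amplitude is the log2 distance from mean to peak. In spring 2 members were rhythmic (2.59% of all genes), in summer 12 (13.6% of all genes), in autumn 8 (16.1% of all genes) and in winter 2 (1.53% of all genes). Of the 62 genes, 18 (29.0%, against 25.7% of all genes) were rhythmic in at least 1 season, and 5 (8.06%, against 6.85% of all genes) in both summer and autumn. The curve differed between seasons in 13 members, or 21.0%, against 21.5% of all genes. Of the 12 rhythmic in summer, 10 peaked between hours 10 and 18, and of the 8 in autumn 7 did so. Among all rhythmic genes 41.4% in summer and 38.3% in autumn peaked in those hours, and the gap was not tested. Median amplitudes were 0.088, 0.12, 0.13 and 0.099 in spring, summer, autumn and winter for members, against 0.092, 0.10, 0.11 and 0.088 for all genes. With 6 hours sampled through a single cycle per season, rhythm and drift during the collection cannot be told apart.

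Catalase had the strongest rhythm. In summer the paired libraries of cat at hours 2, 6, 10, 14, 18 and 22 had means of 22.9, 21.4, 26.9, 40.4, 44.6 and 40.9 FPKM, and in autumn 22.2, 20.9, 20.9, 35.5, 37.0 and 32.7 FPKM. In spring and winter the hour means stayed between 20.4 and 25.8 FPKM. The libraries at hours 14, 18 and 22 (38.1 to 45.8 FPKM) were all above those at hours 2, 6 and 10 (20.2 to 28.8 FPKM) in summer. The amplitude of cat was 0.58 in summer (SE 0.061, adjusted p = 1.6e-08) with a peak at hour 17.6, and 0.48 in autumn (adjusted p = 1.1e-06) with a peak at hour 17.9. It was 0.063 in spring and 0.052 in winter, neither called, and the curve differed between seasons (adjusted p = 7.3e-06). At hours 2 and 6 the summer and winter means of cat were close (22.9 and 21.4 FPKM in summer, 22.6 and 24.8 FPKM in winter).

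**Figure D4:**
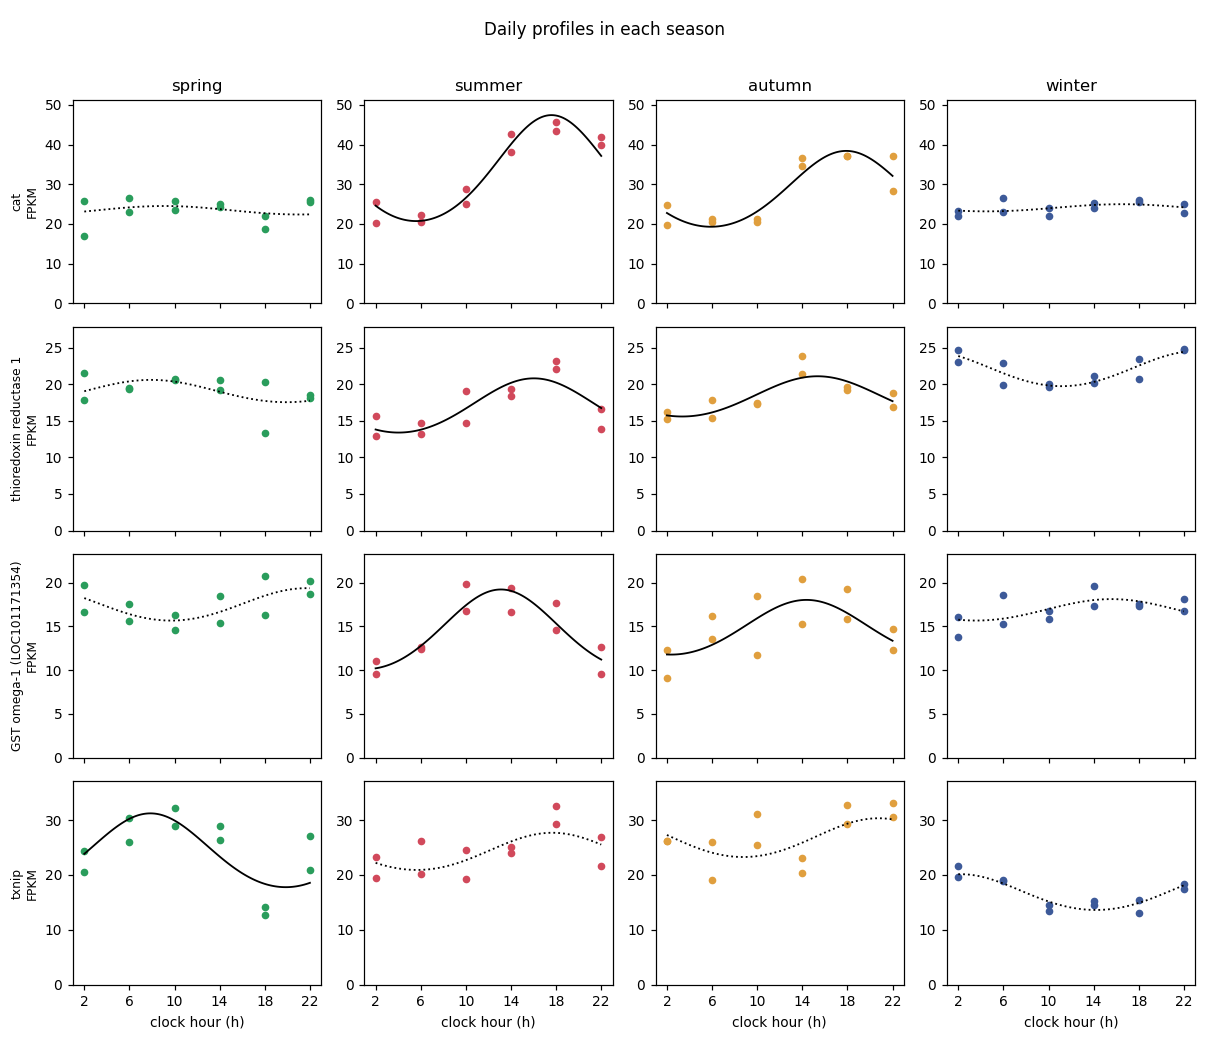
FPKM by clock hour in each season for cat, thioredoxin reductase 1 (LOC101169850), GST omega-1 (LOC101171354) and txnip, with 2 libraries per hour as points and the fitted 24 h curve (solid where called, dotted where not). The fitted curves of the first 3 genes peaked after hour 13 in summer and autumn, and txnip was called in spring alone, with its low at hour 18.

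Thioredoxin reductase 1 and a GST omega-1 also had fitted peaks after hour 13 in summer and autumn. LOC101169850 had hour means of 14.3, 14.0, 16.9, 18.9, 22.6 and 15.3 FPKM in summer (hours 2 to 22), an amplitude of 0.30 (SE 0.053, adjusted p = 2.9e-04) with its peak at hour 16.03. In autumn its amplitude was 0.21 with a peak at hour 15.3 (adjusted p = 0.016), and its curve differed between seasons (adjusted p = 6.8e-04). In winter its hour means were lowest at hour 10 (19.9 FPKM) and highest at hour 22 (24.8 FPKM), and that curve was not called (adjusted p = 0.22). LOC101171354 had hour means of 10.3, 12.5, 18.3, 18.0, 16.1 and 11.1 FPKM in summer, with an amplitude of 0.43 (SE 0.068, adjusted p = 4.8e-05) and a peak at hour 13.1. Its autumn amplitude was 0.29 with a peak at hour 14.4 (adjusted p = 0.0082), a call that was lost without the first autumn library of hour 2 (adjusted p = 0.089) or the second of hour 14 (0.053). Its daytime summer levels reached the 14.9 to 18.5 FPKM of the winter hour means, and its night levels lay below them.

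Other rhythmic transferases peaked by day in summer. GST Mu 5 (LOC101157858) had hour means of 127, 189, 226, 205, 137 and 110 FPKM in summer (hours 2 to 22), with an amplitude of 0.54 (SE 0.10, adjusted p = 4.7e-04) and a peak at hour 10.3. At each of these hours it stayed below its winter hour means of 332 to 497 FPKM. Of the 6 adjoining GST A genes 4 were rhythmic in summer (13.6% of all genes). Their amplitudes were 0.20 to 0.44, with peaks at hours 10.2 (LOC101169583), 11.4 (LOC101167806), 13.2 (LOC101167553) and 18.0 (LOC101168304). LOC101167553 and LOC101168304 were rhythmic in autumn too, with peaks at hours 14.6 and 15.5. The genes gstz1 (peak at hour 14.9), LOC101161407 (15.5), peroxiredoxin-6 (16.2) and gpx7 (20.4) were also rhythmic in summer, with amplitudes of 0.23 to 0.28. In autumn LOC101163444 and txnrd2 peaked at hours 14.7 and 15.3, and peroxiredoxin-1 peaked at hour 1.6 with an amplitude of 0.19, a call lost without the first autumn library of hour 2 or the first of hour 14 (adjusted p = 0.052 and 0.053).

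The calls in spring and winter were few and were lost when single libraries were left out. In spring txnip had hour means of 22.5, 28.2, 30.5, 27.7, 13.5 and 24.1 FPKM (hours 2 to 22), with both libraries of hour 18 at 12.8 and 14.2 FPKM below all other spring libraries. Its amplitude was 0.39 (SE 0.087, adjusted p = 0.024) with a peak at hour 7.9. Without either spring library of hour 18 that call was lost (adjusted p = 0.12 and 0.083), likewise without the first library of hour 6 (0.058) or the second of hour 10 (0.069). In summer the same gene had its highest hour mean at hour 18 (30.9 FPKM), and the curves of txnip differed between seasons (adjusted p = 0.0025). The spring rhythm of gstk1 (amplitude 0.16, adjusted p = 0.027) was lost without the second spring library of hour 2 (0.070) or of hour 10 (0.063). In winter gpx7 was rhythmic with an amplitude of 0.32 (adjusted p = 0.040) at levels of 0.88 to 2.32 FPKM, and gsta4 with 0.30 (adjusted p = 0.045). Both winter calls were lost under many alternatives, among them a test without a filter on low values (adjusted p = 0.055 and 0.063).

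**Figure D5:**
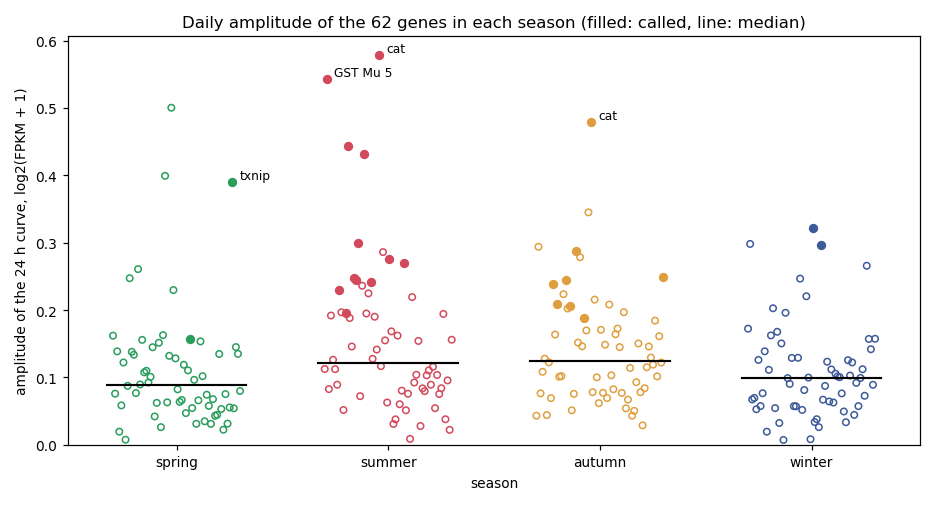
Amplitude of the 24 h curve of each of the 62 genes in each season on the log2(FPKM + 1) scale, filled where called and open where not, with the median as a line. The highest called amplitudes were those of cat (0.58 in summer and 0.48 in autumn) and GST Mu 5 (0.54 in summer), while spring and winter had 2 called genes each.

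The genes that feed these pathways were taken as lists outside the members. The share of all genes in the same contrast stands beside each count. No list was tested against those shares. The NADPH supply list holds enzymes that make NADPH, which gives electrons to both reductases. It also holds enzymes of linked steps that do not make NADPH themselves, namely transketolase, transaldolase and 6-phosphogluconolactonase. In summer with autumn against spring with winter 7 of the 10 genes were higher and 2 lower (47.2% and 32.2% of all genes). Phosphogluconate dehydrogenase (pgd) averaged 18.4 FPKM in summer with autumn and 12.3 FPKM in spring with winter (0.55, adjusted p = 5.3e-17), and transketolase LOC101158764 averaged 49.2 and 33.6 FPKM in the same order (0.54). The abundant NADP isocitrate dehydrogenase gene LOC101171328 had higher means in summer and autumn (173.0 and 162.1 FPKM) than in spring and winter (124.1 and 119.8 FPKM). LOC101166704, a gene of the same product name at far lower levels, went the other way. It had lower means in summer and autumn (0.935 and 1.27 FPKM) than in spring and winter (2.38 and 2.53 FPKM). The list of cysteine and methionine metabolism holds enzymes that make or use up the sulfur amino acid of glutathione. Of its 6 genes 5 were lower in summer than in winter and 1 was higher (32.9% and 42% of all genes). Cysteine dioxygenase (cdo1), which oxidizes cysteine and so removes it, averaged 14.1 FPKM in summer and 29.1 FPKM in winter, a difference of -0.999 (SE 0.043, adjusted p = 6.5e-18), and cystathionine gamma-lyase (cth), which makes cysteine, averaged 11.4 FPKM in summer and 21.4 FPKM in winter (-0.85). All 6 genes of the list were higher in winter than in spring (28.1% of all genes).

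Among the regulators, the transcription factor nfe2l2 (NRF2), which drives many of the members in mammals, was higher in summer (25.8 FPKM) than in winter (15.4 FPKM), by 0.70 (SE 0.038, adjusted p = 1.1e-15) and with no overlap. Its inhibitor keap1 was lower in summer than in winter by -0.39, with overlapping libraries (11.5 to 24.2 and 19.3 to 27.7 FPKM). In autumn, where nfe2l2 was highest (28.7 FPKM), keap1 averaged 20.0 FPKM, above its means in spring (18.9 FPKM) and summer (17.6 FPKM). The gene sqstm1, whose product binds keap1, was lower in summer than in winter by -0.94. In all, 3 of 6 regulators in that list passed as higher in summer than in winter and 2 as lower (42% and 32.9% of all genes). The list of NRF2 targets outside the members was matched partly by product name. That brought in the heme oxygenase 2 genes LOC101175163 and LOC101163641, which may not be targets. Of its 6 tested genes, 2 were higher and 2 lower in summer against winter (42% and 32.9% of all genes). The cystine transporter LOC101160523 was among the higher at 16.3 FPKM in summer and 9.04 FPKM in winter (0.79, adjusted p = 3.9e-08). In contrast, ugdh averaged 2.53 FPKM in summer and 3.81 FPKM in winter, and heme oxygenase LOC101174976 averaged 1.71 and 1.98 FPKM. The gene nqo1 was too low to be tested (mean 0.273 FPKM). In the glutaredoxin and methionine sulfoxide reductase list 7 of 9 were higher and 1 lower in summer against winter (42% and 32.9% of all genes). A methionine-R-sulfoxide reductase B1-A-like gene, LOC101172199, had 8.63 FPKM in summer against 3.87 FPKM in winter (0.999, adjusted p = 1.4e-11). The lower gene was glutaredoxin glrx (-0.67). Several glutathione peroxidases and the thioredoxin reductases depend on selenoprotein synthesis in vertebrates. The list for that synthesis has 9 genes and also holds selenop, which encodes a selenoprotein itself. Of these genes, 5 were higher in summer than in winter and 2 lower (42% and 32.9% of all genes). The metallothionein LOC100049397, a thiol-rich metal-binding protein, averaged 238.2 FPKM in summer and 242.7 FPKM in winter, and that difference was not called (-0.03, adjusted p = 0.87). Its lowest season was spring, at 181.9 FPKM. It was called lower in spring than in autumn (-0.51) and summer (-0.39), and higher in winter than in spring (0.42).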

How the data were processed

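The authors deposited a table of FPKM values for 26167 genes and 48 libraries, per the file headers. Strand-specific, poly-A selected, paired-end libraries were made, per the labels' protocols. Per the submitters' processing notes, the tools were Bowtie2 2.2.5 and RSEM 1.2.12. For the genome build and annotation, the entry is: not given in the sources used here. Counts and depth were not used here, so no counting interval is given and multi-copy genes may share reads. A RefSeq name table (assembly ASM223467v1) supplied names and gene order alone, which covered 25080 IDs and all 62 members.

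Tests covered the 16622 genes whose mean over libraries reached 1 FPKM, as log2(FPKM + 1), which understates changes of low genes. With R 4.3.3, limma 3.58.1 and an intensity trend were used to fit 24 season-by-hour groups (24 residual degrees of freedom), and season differences compared the mean of 6 clock hours. Rhythms used a 24 h cosine per season (36 residual degrees of freedom), with F-tests for each season and for differences between seasons. P-values were adjusted by Benjamini-Hochberg over all tested genes. SE stands for the standard error of the difference or amplitude. The model was tested on simulated data. Scripts used Python 3.11.15.

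Members, lists and tests were chosen with earlier results of these data known. From the lists, 72 entries were removed by product name. Full values were given for the core enzymes, for the 6 highest and 6 lowest called members of each season pair with a season mean of at least 5 FPKM, and for the called members with the smallest rhythm p (4 per season, 6 for the difference). Alternatives were a pseudocount of 0.1, no filter, a mean FPKM of at least 5, median-ratio scaling, quantile normalization, array weights, no intensity trend, a replicate block, each library, each clock hour or 3 spring libraries left out, the compared seasons alone, and any difference between clock hours in place of the cosine. Motifs in promoters were not searched.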

Additional observations from a re-analysis of the deposited data

Results flagged for a closer look

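The daily curve differed between seasons in 13 of the 62 members, by the limma F-test of the difference itself with adjustment over all tested genes. Each is listed because an effect measured in the same way differed between seasons, and the size of each rhythm stands in the report. The adjusted p was 7.3e-06 for cat, 6.8e-04 for thioredoxin reductase 1 (LOC101169850), 0.00248 for txnip, 0.00293 for gpx7, 0.00353 for GST omega-1 LOC101171354 and 0.00476 for the sulfurtransferase LOC101163444. It was 0.0112 for LOC101167553, 0.0115 for txnrd2, 0.0201 for peroxiredoxin-6 (LOC101174176), 0.024 for GST Mu 3 (LOC101157367), 0.0268 for GST Mu 5 (LOC101157858), 0.0318 for LOC101169583 and 0.0435 for LOC101168304. GST Mu 3 is among them although no season alone was called, with amplitudes of 0.16 in spring (peak at hour 21.7) and 0.17 in winter (peak at hour 8.8). The sulfurtransferase LOC101163444 peaked at hour 8.2 in spring (amplitude 0.25, not called, adjusted p = 0.062), at hour 15.6 in summer (0.20, not called) and at hour 14.7 in autumn (0.24, called). For gpx7 the peak was at hour 20.4 in summer and at hour 13.1 in winter. The call of LOC101171354 was lost when any difference between clock hours replaced the cosine (adjusted p = 0.0788), and that of LOC101163444 without clock hour 18 (0.0598). The cause of these differences was not tested.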

How the results depend on the processing

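Of the 20 counts of members, 13 stayed within 1.5 times their value under each of the 63 or 64 alternatives that apply to it. No called difference of a named gene reversed. Of 81 named season differences 7 lost their call under at least 1 alternative, against 9 of 18 named rhythms. The cause was not tested.

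The rhythm counts moved most. In winter 2 members became 0 without a filter on low values and without clock hour 2, 10, 14 or 22. They became 1 with a mean of at least 5 FPKM, quantile normalization, a replicate block, any difference between clock hours, or without hour 6. In spring 2 became 0 without hour 10 or without the 3 spring libraries, and 1 with array weights, any difference between clock hours, or without hour 2, 6, 14, 18 or 22. In autumn 8 became 15 with array weights, 14 with any difference between clock hours and 2 without hour 14. In summer 12 became 7 without hour 2 or hour 18, and the 13 rhythm differences became 8 without hour 2. The members lower in winter than in spring (5) became 8 with quantile normalization. Those higher in summer than in autumn (8) became 5 without hour 18 or hour 22.

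Leaving out each library in turn gave 0 to 3 rhythmic members in spring, 7 to 12 in summer, 5 to 10 in autumn, 0 to 2 in winter and 10 to 15 rhythm differences. The summer count was 7 without the first library of hour 2. The autumn count was 5 without the first library of hour 2 or either of hour 14. The spring count was 0 without the second library of hour 10, and the winter count was 0 without either library of hour 2, the first of hour 10 or 14, or the second of hour 18 or 22. The season counts stayed at 25 to 28 higher and 17 to 18 lower in summer against winter, and at 34 to 35 higher and 20 lower in summer with autumn against spring with winter.

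Libraries with equal replicate numbers were compared between seasons at the same clock hour. Correlations of their deviations lay between -0.16 and 0.29 (median -0.0055). Pairing across hours within a season was not checked. With a replicate block the counts were 26 higher and 18 lower in summer against winter, 7 and 16 in summer against autumn, 20 and 5 in winter against spring, and 11 rhythmic in summer. Of 298 called member differences, median-ratio scaling kept 270 and quantile normalization 278. Read depth was not available, so the precision of genes near 1 FPKM cannot be stated.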
